A study of Mus musculus with 60 samples.

Results

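*Slco5a1*, *Gm37933*, *Parp3* and *Gm33195* are mouse genes that were selected because their nascent transcription was higher when the protein CTCF was lost. They are 4 of the 27665 transcripts counted by EU-seq, in which cells take up 5-ethynyl uridine for 20 min and only the labelled, newly made RNA is sequenced. The 4 rows were found by their Ensembl transcript identifiers, which GENCODE M21 pairs with these symbols. Since high values after CTCF loss chose the genes, their values in the CTCF experiments are given as descriptions without a test, and tests are given for the experiments that did not choose them.

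The study used degron lines of mouse embryonic stem cells (mESCs), in which a drug sends a tagged protein to degradation. CTCF-AID cells carry an auxin-inducible degron on GFP-tagged CTCF. Of this line there were 4 control libraries and 4 libraries exposed to indole-3-acetic acid (IAA, 500 µM) for 6 h, and in either set 2 kept strand information and 2 did not. CTCF-YF-AA cells carry GFP and an FKBP12 degron on a CTCF with the substitutions Y226A and F228A, in a stretch that contacts cohesin, so their controls are mutant too. There were 2 control libraries of this line, 2 given dTAG-13 for 2 h and 2 for 4 h, at 200 nM by the labels. The dN-dC cells hold a BromoTag CTCF that lacks the N terminus and a dTAG CTCF that lacks the C terminus, and no full-length form, controls included. For 2 h they received AGB1 (100 nM), which removes the form lacking the N terminus, dTAG-13 (100 nM by the labels), which removes the form lacking the C terminus, or both, with 2 libraries for each and for the shared control. RAD21-AID mESCs carry the auxin degron on GFP-tagged RAD21, a cohesin subunit, and IAA (500 µM, 4 h) was compared with control in 2 experiments, called initial here with 2 libraries a group and additional with 12 a group. Neuronal progenitor cells (NPCs) were differentiated from the RAD21-AID line. Their 2 control libraries were compared with pairs of libraries given IAA for 1, 2 or 4 h, or A-485 (10 µM, 1 h), which blocks the histone acetyltransferases p300 and CBP. The CTCF-YF-AA and dN-dC lines were picked as single clones from E14 cells and the AID lines came from other laboratories, so line, clone and mutation cannot be told apart between lines. The labels name all dN-dC libraries as stranded and no CTCF-YF-AA or RAD21-AID library. Library type is therefore a further difference between lines.

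CTCF is a zinc finger protein that binds DNA at a long motif. Bound CTCF halts cohesin, the ring complex with RAD21 that extrudes chromatin loops, and so sets loop anchors and insulates enhancers from genes beyond them. CTCF also binds near the start sites of genes. *Slco5a1* encodes a little-studied member of the organic anion transporter family, and *Parp3* a nuclear enzyme that attaches single ADP-ribose units to its targets and acts in the repair of DNA breaks. *Gm37933* and *Gm33195* are annotated as long intergenic noncoding RNAs, for which no role is given here.

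On GRCm38 (mm10), *Slco5a1* (ENSMUST00000188454.6) lies on chromosome 1 from 12866549 to 12992650 on the minus strand. *Parp3* (ENSMUST00000067218.13) lies on chromosome 9 from 106470322 to 106476949 on the minus strand. *Gm37933* (ENSMUST00000193964.1) spans 86142757 to 86145545 on the plus strand of chromosome 3, and *Gm33195* (ENSMUST00000220827.1) spans 43864669 to 43868589 on the plus strand of chromosome 13. Reads were counted over these whole bodies, exons and introns together.

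Start-site sequences are shown because 2 of the 4 genes begin next to another gene and because CTCF binds DNA by sequence. *Parp3* starts head to head with *Rrp9*, which encodes a protein of the particle that processes ribosomal RNA precursors, and 319 bases lie between them. *Gm37933* starts head to head with *Rps3a1*, a gene of the small ribosomal subunit, with 54 bases between the counted bodies. The RefSeq sequences (GRCm38.p6) are written in each gene's own direction. Those of *Parp3* and *Gm33195* end at the base before the RefSeq start, and that of *Rps3a1* ends at the base before its counted start. For *Parp3* they cover chr9:106476950-106477199 and lie wholly between *Parp3* and *Rrp9*, and capitals mark the closest match to the CTCF core consensus, on the opposite strand at 58 to 47 bases before the start with 2 mismatches. For *Gm33195* they cover chr13:43864306-43864555 before the RefSeq start nearest to the counted transcript, which begins 113 bases further on, and no stretch came closer to the consensus than 3 mismatches. For *Rps3a1* (chr3:86142703-86142918) the lower-case bases lie inside *Gm37933* and the capitals mark the 54 bases between both genes. The counted start of *Rps3a1* lies 34 bases before its RefSeq start. Its closest match to the consensus, on the opposite strand with 2 mismatches, lies at −37 to −26 from the RefSeq start. That match runs past the printed end and is not marked.
Parp3: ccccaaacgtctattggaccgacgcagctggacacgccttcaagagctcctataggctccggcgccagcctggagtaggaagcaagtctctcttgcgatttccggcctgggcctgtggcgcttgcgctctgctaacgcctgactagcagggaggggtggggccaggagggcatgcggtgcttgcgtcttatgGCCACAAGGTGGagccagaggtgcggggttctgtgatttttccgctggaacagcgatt
Gm33195: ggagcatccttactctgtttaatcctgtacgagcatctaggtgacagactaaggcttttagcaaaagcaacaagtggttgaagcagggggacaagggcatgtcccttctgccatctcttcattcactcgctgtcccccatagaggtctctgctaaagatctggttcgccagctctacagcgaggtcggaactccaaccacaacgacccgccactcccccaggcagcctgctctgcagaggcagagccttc
Rps3a1: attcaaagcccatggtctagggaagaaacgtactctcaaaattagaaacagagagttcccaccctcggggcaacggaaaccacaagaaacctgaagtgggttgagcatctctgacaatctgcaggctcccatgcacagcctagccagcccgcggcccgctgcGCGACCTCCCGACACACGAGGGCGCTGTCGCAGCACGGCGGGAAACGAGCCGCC
Matches are common at this length. Of 32544 promoter windows (250 bases before to 50 after a RefSeq start), 0.562% held the CTCF core consensus exactly, 4.35% with at most 1 mismatch and 29.9% with at most 2, on either strand, and 29.5% held the shorter AGGNGGC. A match as close as the one before *Parp3* is thus found in 29.9% of windows, and it is a description of letters and not of binding.

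The 56 libraries counted over whole gene bodies held 4027449 to 21898781 counts, with the fewest in CTCF-YF-AA control replicate 1. Levels are counts scaled to a fixed library total (CPM) after TMM scaling of the libraries, and levels of different genes are compared only as TPM, which also divides by gene length. Summed markers of mESCs were 3603 to 5780 CPM in the 50 mESC libraries and 53.0 to 73.2 CPM in the 6 NPC libraries counted over whole bodies, and summed NPC markers were 50.8 to 113 and 1051 to 1255 CPM. A list of 10 markers of other cell types was at 9.69 to 47.6 CPM in mESCs and at 693 to 1181 CPM in NPCs, where *Col1a1*, a collagen gene, made up 682 to 1169 CPM while *Sox17* and *Cdx2* were at 0 in every library. The degrons act on protein, so RNA does not test the depletion, and *Ctcf* and *Rad21* RNA moved by −0.06 to 0.05 on the log2 scale in the CTCF comparisons. In bulk samples fewer cells of a type and less RNA per cell cannot be told apart.

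Of the 4 genes, 3 were at least 2-fold higher after 6 h of CTCF loss in CTCF-AID cells, and *Parp3* was 1.74-fold higher. Over all genes tested, 2.19% were at least 2-fold higher in this comparison, and nothing can be read from the difference because these values chose the genes. For each gene all 4 IAA libraries lay above all 4 controls. The share of all genes that separated in this way was counted for the additional RAD21-AID experiment alone. Elsewhere such separation is a description only. Log2 fold changes below are centred on the median of expressed genes and carry the standard error (SE) of the fit.

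*Slco5a1*, the transporter gene, had 19.2 and 18.5 CPM in the controls made without strand information and 53.8 and 53.2 CPM after IAA. With strand information it had 21.4 and 45.9 CPM in controls and 62.5 and 100.6 CPM after IAA. The groups did not overlap, but stranded control replicate 2 stood high above the other controls, as its partner did among the IAA libraries. The ratio within a numbered pair was 2.19 to 2.92, and the log2 fold change was 1.41 (SE 0.23), or 1.70 without that control.

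*Parp3*, the ADP-ribosyltransferase gene, had the smallest difference of the 4. Controls had 1.98, 2.01, 2.47 and 2.46 CPM, and the IAA libraries 3.12, 2.94, 3.95 and 5.31 CPM, in the order unstranded 1 and 2, stranded 1 and 2. Its log2 fold change was 0.80 (SE 0.19), with ratios of 1.46 to 2.16 within pairs.

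*Gm37933*, the noncoding gene beside *Rps3a1*, had the widest separation. It lay between 0.885 and 2.06 CPM in controls, which is 18 to 25 counts a library, and between 23.6 and 34.5 CPM after IAA. The log2 fold change was 4.29 (SE 0.24), a 19.5-fold difference. Per length, its mean went from 8.74 TPM (SD 2.65, n = 4) to 164 TPM (SD 10.6, n = 4), so that among the 4 genes it had the highest mean level after IAA.

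*Gm33195*, the other noncoding gene, was near the limit of detection before IAA. Controls held 4 to 7 counts, or 0.344 to 0.424 CPM, and the IAA libraries 0.864 to 2.32 CPM. It entered the test through the IAA libraries alone, and its log2 fold change was 2.23 (SE 0.37), with ratios of 2.10 to 6.73 within pairs. In TPM, the means went from 3.52 to 8.89 for *Slco5a1*, from 5.44 to 9.58 for *Parp3* and from 1.57 to 7.19 for *Gm33195*.

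Marker levels are given for the same libraries. Summed mESC markers were 4521 to 5572 CPM in CTCF-AID controls and 4155 to 4885 CPM after IAA, and summed markers of other cell types were 9.69 to 24.4 and 17.9 to 38.1 CPM. These ranges overlapped over both library types together. Within every numbered pair, however, the mESC sum was lower and the other sum higher after IAA. Without strand information neither sum overlapped. The mESC sum had 5289 and 5377 CPM in controls against 4610 and 4619 CPM after IAA, and the other sum 23.5 and 24.4 CPM against 36.5 and 38.1 CPM. The 6 genes of the second list above the count minimum had a median log2 fold change of 0.91, beside 0.02 over all genes tested. By edgeR without a term for the pairs, 0 of 9 mESC marker transcripts and 0 of these 6 had an adjusted p under 0.05. The part of either marker list in the values of the 4 genes was not tested.

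**Figure D1:**
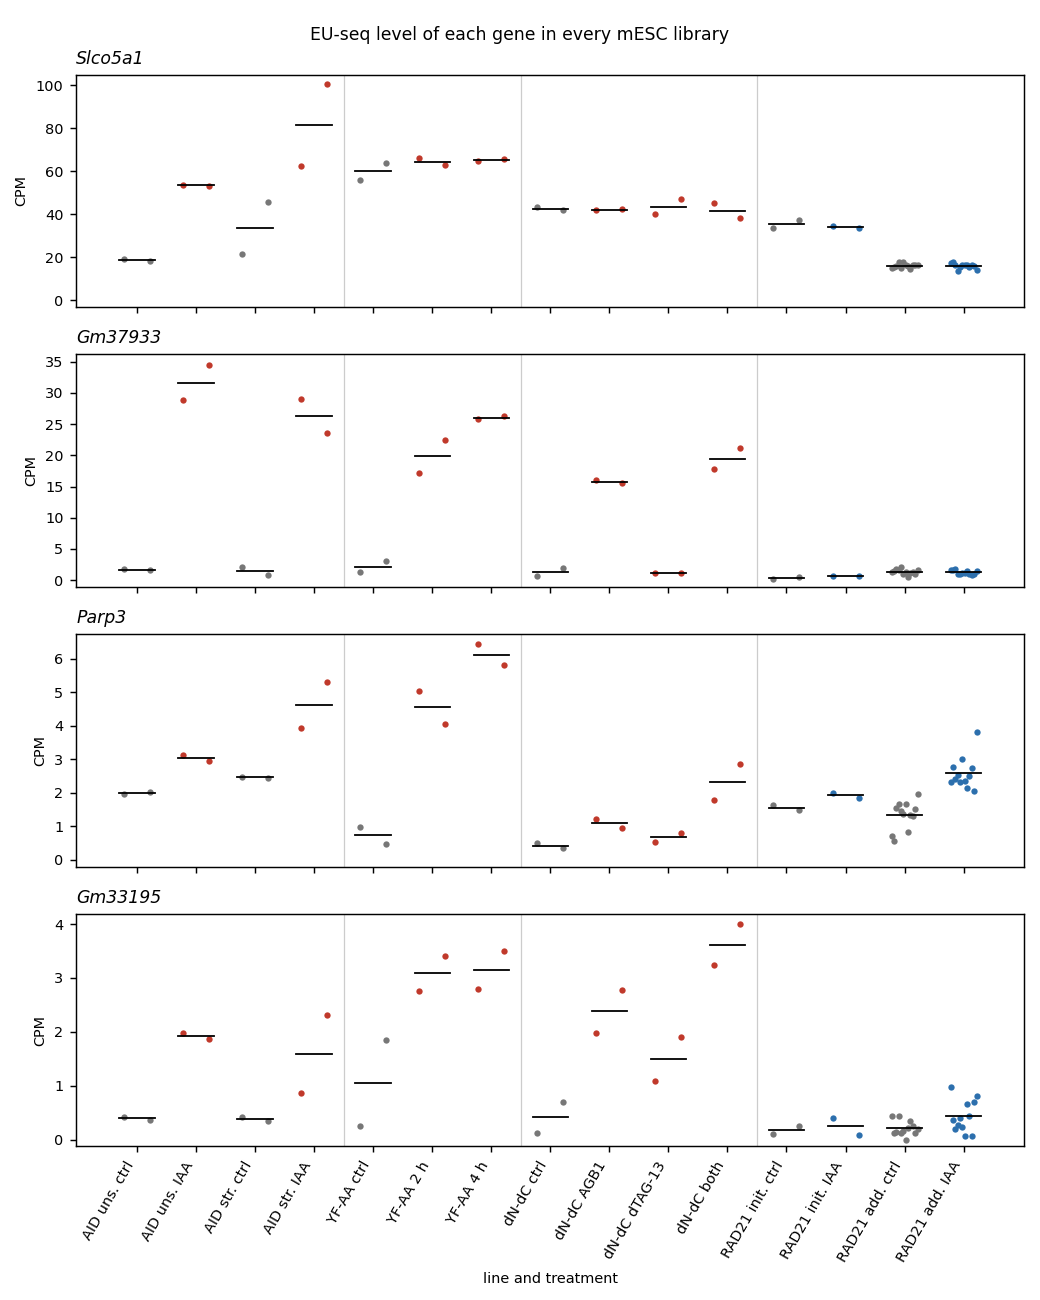
EU-seq level of each gene in every mESC library, in CPM (linear axis, one panel per gene). Each point is a library and each bar the mean of its group, grey for controls, red for CTCF depletion and blue for RAD21 depletion, with uns. and str. for CTCF-AID libraries without and with strand information. The red points of *Slco5a1* lie clearly above their grey ones in CTCF-AID alone, and *Gm37933* is high in every CTCF depletion other than dTAG-13 in the dN-dC line.

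In CTCF-YF-AA cells, *Slco5a1* was high before depletion and changed little, whereas the other 3 genes were at least 2-fold higher after dTAG-13 at both times. Of all genes tested, 0.521% were at least 2-fold higher at 2 h and 0.665% at 4 h. Both times share the same 2 controls, so their values are not independent of each other. Control replicate 1 was the smallest library. Here and in the dN-dC line *Gm37933*, *Parp3* and *Gm33195* passed the count minimum, where they did, through the treated libraries alone, so they had to differ. Summed mESC markers were 5512 to 5780 CPM in controls, 5131 to 5168 CPM at 2 h and 5110 to 5201 CPM at 4 h, and their part in the values below was not tested.

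*Slco5a1* had 55.9 and 64.0 CPM in controls, 66.1 and 62.7 CPM at 2 h and 65.0 and 65.6 CPM at 4 h. Its log2 fold changes were 0.09 (SE 0.11) and 0.10 (SE 0.09). The 2 h libraries overlapped the controls, and both 4 h libraries lay just above them.

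*Parp3* had 0.984 and 0.488 CPM in controls, from 4 and 5 counts, then 5.05 and 4.07 CPM at 2 h and 6.44 and 5.82 CPM at 4 h. The log2 fold changes were 2.79 (SE 0.57) at 2 h and 3.23 (SE 0.49) at 4 h. They became 2.14 and 2.59 without control replicate 2. All treated libraries lay far above both controls.

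*Gm37933* went from 1.23 and 3.12 CPM to 17.2 and 22.4 CPM at 2 h and to 25.8 and 26.2 CPM at 4 h. Its log2 fold changes were 3.01 (SE 0.29) and 3.35 (SE 0.25). Without control replicate 1 they were 2.72 and 3.07, and without control replicate 2 they were 4.01 and 4.36. Either way the treated libraries stood well above the control.

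*Gm33195* was less certain here. Its controls held 1 and 19 counts, 0.246 and 1.85 CPM, and the treated libraries had 2.76 and 3.41 CPM at 2 h and 2.80 and 3.49 CPM at 4 h. The log2 fold changes of 1.25 (SE 0.52) and 1.24 (SE 0.49) became 3.56 and 3.58 without control replicate 2. The groups did not overlap, and the size of the difference rests on that library.

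The dN-dC line separates the truncated forms of CTCF. Removing the form without the N terminus (AGB1) went with higher values of *Gm37933* and *Gm33195*, while *Slco5a1* overlapped its controls. After both forms were removed *Parp3* was higher too, and after either drug alone it lay above its controls but under the count minimum. Of the genes above the count minimum, 2 of 3 were at least 2-fold higher after AGB1, 0 of 1 after dTAG-13 and 3 of 4 after both, where 0.154%, 0.0294% and 0.276% of all genes tested were. These comparisons share their 2 controls, and the difference between treatments was not tested for the 4 genes. Summed mESC markers were at 5012 and 5000 CPM in the controls and at 4602 and 4622 CPM after both drugs, with no overlap, where 4 of their 9 tested transcripts had an adjusted p under 0.05 by edgeR and 0 were called. Summed NPC markers were at 51.9 and 53.4 CPM and at 60.6 and 56.6 CPM. The part of these markers in the values of the 4 genes was not tested.

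*Slco5a1* had 43.4 and 42.0 CPM in controls, 42.0 and 42.4 CPM after AGB1, 40.0 and 47.0 CPM after dTAG-13 and 45.1 and 38.1 CPM after both. All groups overlapped, with log2 fold changes of −0.01 (SE 0.09), 0.04 (SE 0.10) and −0.04 (SE 0.09).

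*Parp3* was low throughout, with 4 and 3 counts in the controls (0.500 and 0.352 CPM). It had 1.23 and 0.964 CPM after AGB1 and 0.542 and 0.800 CPM after dTAG-13, both under the count minimum. After both drugs it had 1.80 and 2.85 CPM, a log2 fold change of 2.38 (SE 0.52) and 2.12 times the AGB1 mean. In each arm both treated libraries lay above both controls, for which no share over all genes was counted. The mean was 2.58 times the control mean after AGB1 alone and 1.57 times after dTAG-13 alone, from few counts.

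*Gm37933* followed the AGB1 arm. Controls had 0.625 and 2.00 CPM, AGB1 gave 16.0 and 15.5 CPM, dTAG-13 gave 1.08 and 1.20 CPM, and both drugs gave 17.7 and 21.2 CPM. Its dTAG-13 libraries lay between the controls, the AGB1 mean was 13.8 times the dTAG-13 mean, and both together gave 1.24 times the AGB1 mean. The log2 fold changes were 3.55 (SE 0.27) for AGB1 and 3.84 (SE 0.26) for both, ranging from 2.97 to 4.63 and from 3.26 to 4.92 when one or the other control was left out.

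*Gm33195* was less even. Its controls held 1 and 6 counts (0.125 and 0.704 CPM), and it had 1.97 and 2.78 CPM after AGB1, 1.08 and 1.90 CPM after dTAG-13 and 3.24 and 3.99 CPM after both. All treated libraries, those of dTAG-13 included, lay above both controls, but the dTAG-13 libraries held 8 and 19 counts and stayed under the minimum. The share of all genes that lay so was not counted. The log2 fold change was 2.47 (SE 0.55) for AGB1 and 3.03 (SE 0.49) for both, and it was 1.75 to 4.12 and 2.32 to 4.70 when one or the other control was left out.

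**Figure D2:**
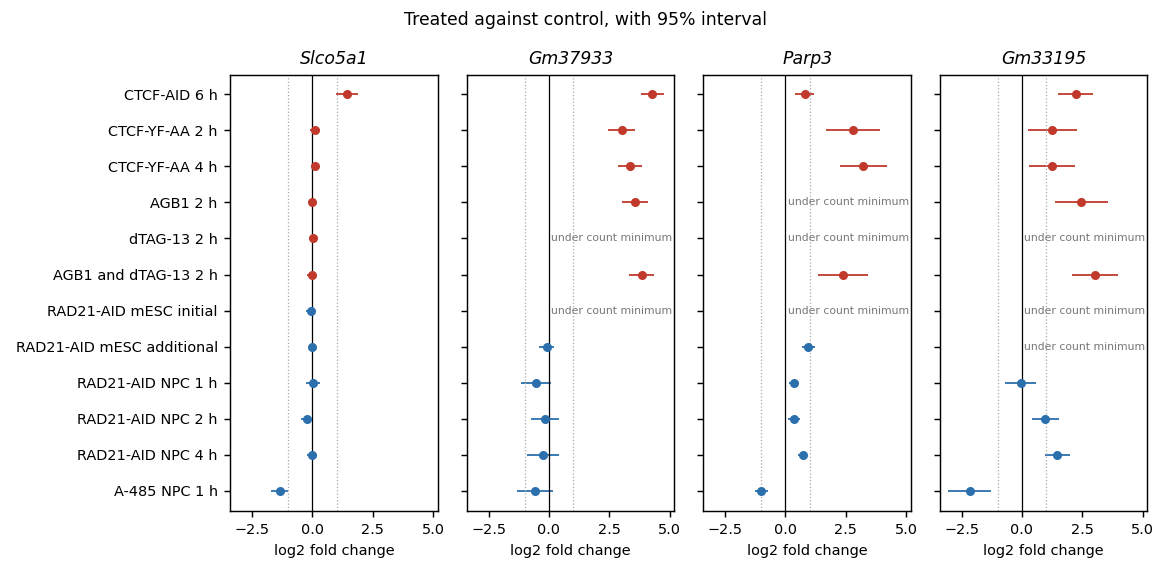
Log2 fold change of each gene, treated against control, in 12 comparisons, with 95% intervals. Red marks CTCF depletion, where the values chose the genes, blue marks RAD21 depletion and A-485, dotted lines mark 2-fold, and a gene under the minimum mean count of 20 has no point. *Gm37933* is far to the right in the CTCF rows and near 0 in the RAD21 rows, while *Parp3* is right of 0 in both.

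Across the 15 mESC groups, the highest group mean was 5.09 times the lowest for *Slco5a1*, 87.2 times for *Gm37933*, 14.4 times for *Parp3* and 19.9 times for *Gm33195*. *Slco5a1* was highest in CTCF-AID libraries after IAA with strand information (mean 81.6 CPM), followed by the 3 CTCF-YF-AA groups (65.3, 64.4 and 59.9 CPM), and lowest in the additional RAD21-AID experiment (16.0 CPM after IAA). *Gm37933* was highest in the CTCF-AID libraries after IAA (31.7 and 26.3 CPM), *Parp3* after 4 h of dTAG-13 in CTCF-YF-AA cells (6.13 CPM) and *Gm33195* in dN-dC cells after both drugs (3.62 CPM). Of the 14 steps between neighbours in each order, the libraries overlapped in 9 for *Slco5a1* and *Gm37933*, 10 for *Parp3* and 14 for *Gm33195*, so that the fine order of *Gm33195* is not set by these libraries.

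RAD21 loss did not choose the genes, and here they were tested with edgeR's quasi-likelihood test, with p-values adjusted by Benjamini-Hochberg over all genes tested. A gene is called where the adjusted p is under 0.05 and the change at least 2-fold. The question is whether genes that were higher without CTCF also move when cohesin, the complex CTCF halts, is removed. In mESCs, *Parp3* rose and no difference was detected for *Slco5a1* and *Gm37933*, while *Gm33195* was too low to test.

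*Parp3* had 0.564 to 1.96 CPM in the 12 controls of the additional experiment (median 1.43) and 2.06 to 3.81 CPM in the 12 IAA libraries (median 2.45). All 12 IAA libraries lay above all 12 controls, which held for 4.57% of all genes tested. The log2 fold change was 0.95 (SE 0.13, adjusted p = 2.78e-08), a 1.94-fold rise that stayed just under the 2-fold condition for a call. In this comparison 58.3% of all genes tested had an adjusted p under 0.05, and 0.845% were called in either direction. The value was 0.94 without replicate 1 of each group, which the labels place in another batch (adjusted p = 4.24e-08), and 0.96 with batch as a covariate (adjusted p = 1.20e-08). In the initial experiment *Parp3* had 1.64 and 1.48 CPM in controls and 2.00 and 1.86 CPM after IAA, higher in both but under the count minimum.

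*Slco5a1* had 14.7 to 18.1 CPM in the additional controls (median 16.3) and 13.9 to 17.9 CPM after IAA (median 16.3). The groups overlapped almost fully, and the log2 fold change was −0.00 (SE 0.04, adjusted p = 0.839). The initial libraries gave 33.8 and 37.5 CPM in controls and 34.4 and 33.5 CPM after IAA, with a log2 fold change of −0.07 (SE 0.10, adjusted p = 0.781). Among the 4, *Slco5a1* alone was above the count minimum there, and 0.461% of all genes tested were called.

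*Gm37933* had 0.551 to 2.05 CPM in the additional controls (median 1.33) and 0.832 to 1.75 CPM after IAA (median 1.12). All IAA libraries lay within the range of the controls, with a log2 fold change of −0.10 (SE 0.16, adjusted p = 0.575). In the initial libraries it held 2 and 6 counts in controls and 7 in each IAA library. At these counts a small change cannot be detected.

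*Gm33195* had 0 to 0.434 CPM in the additional controls (median 0.175) and 0.0618 to 0.976 CPM after IAA (median 0.384), from at most 11 counts a library. Of the 12 IAA libraries, 5 lay above all controls. It was not tested, and it had 0.103 and 0.261 CPM in the initial controls and 0.399 and 0.0929 CPM after IAA.

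Markers moved in this experiment. Summed mESC markers were 4743 to 5012 CPM in the additional controls and 4102 to 4330 CPM after IAA, and markers of other cell types were 17.8 to 23.2 and 22.4 to 27.0 CPM. Their part in the rise of *Parp3* was not tested.

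**Figure D3:**
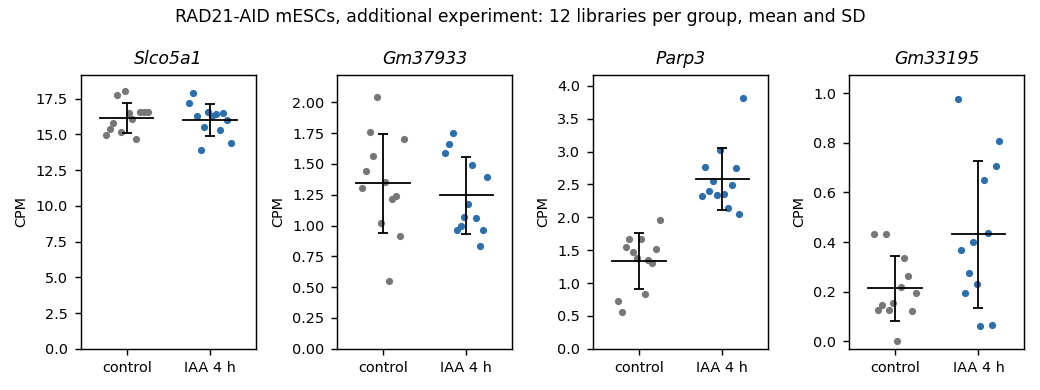
Level of each gene in the 12 control (grey) and 12 IAA (blue) libraries of the additional RAD21-AID mESC experiment, in CPM on linear axes, with the mean and SD. The *Parp3* points separate completely, those of *Slco5a1* and *Gm37933* overlap, and those of *Gm33195* overlap in part.

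In NPCs, *Parp3* and *Gm33195* rose after 4 h of RAD21 loss, and 3 of the 4 genes fell after A-485, in comparisons where 39.5% and 67.7% of all genes tested had an adjusted p under 0.05. NPC markers moved too. Their sum was 1051 and 1113 CPM in controls and 1186 and 1125 CPM at 4 h, where 7 of the 8 had an adjusted p under 0.05 by edgeR and 1 was called higher (median log2 fold change 0.26), and after A-485 6 of the 7 tested were called lower (median −1.64). The part of these markers in the values of the 4 genes was not tested. The 1 h libraries were counted over at most the first 90 kb of a gene, which shortens the counted part of *Slco5a1* alone among the 4, and were set against controls counted in the same way, which the A-485 comparison shares. The 2 h and 4 h comparisons share whole-body counts of the same 2 controls.

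*Parp3* had higher means in NPCs than in any mESC group, a difference that was not tested, with 11.1 and 12.4 CPM in controls, 15.6 and 14.4 CPM at 2 h and 19.5 and 19.3 CPM at 4 h. Over the first 90 kb it went from 13.6 and 15.1 CPM to 18.8 and 18.5 CPM at 1 h. Treated libraries lay above both controls at each time, for which no share over all genes was counted. The log2 fold change was 0.36 at 1 h (SE 0.11, adjusted p = 0.0226), 0.35 at 2 h (adjusted p = 0.0600) and 0.71 at 4 h (SE 0.10, adjusted p = 6.10e-07). The adjusted p at 1 h was 0.158 with DESeq2 and 0.157, 0.0665 and 0.0529 without control 1, IAA 1 and IAA 2, and at 2 h it was 0.0282 with any count and 0.0219 without IAA 2. None of these reached 2-fold.

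*Gm33195* had 1.09 and 1.60 CPM in controls, 2.78 and 2.53 CPM at 2 h and 3.87 and 3.70 CPM at 4 h. At 1 h it had 1.81 and 1.46 CPM against 1.33 and 1.95 CPM, with overlapping groups and a log2 fold change of −0.04 (adjusted p = 0.981). It was 0.96 higher at 2 h (SE 0.29, adjusted p = 0.0396) and 1.46 higher at 4 h (SE 0.26, adjusted p = 2.2e-05), and the 4 h value met both conditions for a call. At 2 h the adjusted p was 0.182 with DESeq2, 0.308 without control replicate 1 and 0.0664 without IAA replicate 1.

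*Slco5a1* had 14.8 and 14.3 CPM in controls, 12.3 and 12.7 CPM at 2 h and 13.6 and 15.5 CPM at 4 h, and *Gm37933* had 1.63 and 1.60, 1.34 and 1.63, and 1.85 and 0.853 CPM. Over the first 90 kb at 1 h, *Slco5a1* had 9.88 and 10.8 CPM against 10.7 and 9.33 CPM, and *Gm37933* 1.13 and 1.60 CPM against 2.00 and 1.95 CPM. Their log2 fold changes at 1, 2 and 4 h were 0.03, −0.23 and −0.02 for *Slco5a1* and −0.54, −0.17 and −0.25 for *Gm37933*. No adjusted p of either gene was below 0.313.

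Read against all genes, 15.7%, 14.6% and 39.5% had an adjusted p under 0.05 at 1, 2 and 4 h, and 0.586%, 1.50% and 3.57% were called in either direction. At 4 h, 0.817% of genes were called higher, as *Gm33195* was. A direct test of the 4 h response in NPCs against that in the additional mESC experiment, added after the data were seen, gave a log2 difference of −0.21 for *Parp3* (adjusted p = 0.457) and 0.56 for *Gm33195* (adjusted p = 0.442). A difference between the cell types was thus not detected for either.

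After 1 h of A-485, *Slco5a1* had 4.71 and 3.91 CPM against 10.7 and 9.33 CPM in controls. *Parp3* had 8.20 and 7.70 CPM against 13.6 and 15.1 CPM, and *Gm33195* had 0.387 and 0.421 CPM against 1.33 and 1.95 CPM. For these 3 genes both treated libraries lay below both controls. The share of all genes for which this held was not counted, and 20.2% of all genes tested were called lower. The log2 fold change was −1.36 for *Slco5a1* (SE 0.18, adjusted p = 1.88e-05), −0.998 for *Parp3* (SE 0.14, adjusted p = 4.96e-05) and −2.16 for *Gm33195* (SE 0.45, adjusted p = 0.000972), and *Parp3* fell just short of 2-fold.

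*Gm37933* had 2.13 and 0.842 CPM after A-485 against 2.00 and 1.95 CPM, and its log2 fold change was −0.57 (adjusted p = 0.314). The treated libraries lay on both sides of the controls, and without A-485 replicate 1 the value was −1.38 (adjusted p = 0.0113). A-485 moved much of the transcriptome, with 67.7% of genes under an adjusted p of 0.05, 21.0% called in either direction and 20.2% called lower, and 0.124, the median shift of expressed genes, was subtracted from each value.

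**Figure D4:**
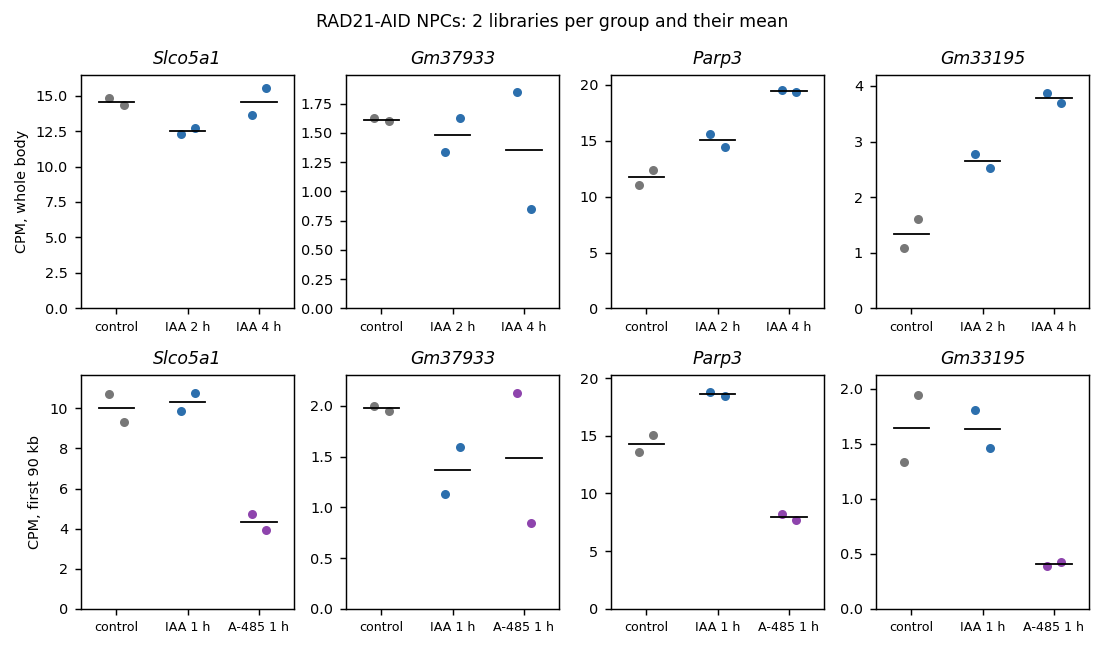
Level of each gene in RAD21-AID NPCs, in CPM on linear axes that start at 0. The upper row shows whole-body counts of control (grey), 2 h and 4 h IAA (blue) libraries, the lower row counts over at most the first 90 kb for control, 1 h IAA and A-485 (purple). Points are libraries and bars their means. *Parp3* and *Gm33195* are higher at 2 h and 4 h, and all but *Gm37933* are lower after A-485 in both libraries.

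Levels before depletion differed between lines, and also between experiments of the RAD21-AID line. *Slco5a1* stood at 55.9 and 64.0 CPM in CTCF-YF-AA controls and at 43.4 and 42.0 CPM in dN-dC controls. RAD21-AID controls had 33.8 and 37.5 CPM in the initial experiment but 14.7 to 18.1 CPM in the additional one. CTCF-AID controls had 19.2 and 18.5 CPM without strand information and 21.4 and 45.9 CPM with it. The CTCF-YF-AA controls were above the initial RAD21-AID controls by 0.62 on the log2 scale, given without a test because the CTCF-YF-AA libraries share in the choice of genes. In that comparison 65.0% of genes had an adjusted p under 0.05 and 20.5% were called, and 0.160, the median shift of expressed genes, was subtracted. Against the CTCF-AID controls, which share in that choice too, the log2 values without a test were 1.64 for *Slco5a1*, 0.52 for *Gm37933* and −1.67 for *Parp3*, where 15.6% of genes were called. Without CTCF-YF-AA control replicate 2 the value of *Gm37933* was −0.45. Mutation, clone and experiment cannot be told apart in either comparison.

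The count table holds 31 transcripts of 30 genes whose bodies come within 200 kb of the 4 genes, 7 around *Slco5a1*, 3 around *Gm37933*, 14 around *Parp3* and 7 around *Gm33195*. None of those tested was called in any CTCF depletion by edgeR without a replicate block, at this distance or within 100 or 500 kb. With the replicate number as a block, which pairs the CTCF-AID libraries, edgeR called 1 in CTCF-AID (*Abhd14b*) and 511 of all genes tested. The edgeR values of single neighbours in CTCF-AID given below ignore this pairing unless the block is named. The numbers tested were 20 in CTCF-AID cells and 17 in each of the 5 other CTCF comparisons. At an unadjusted p under 0.05 there were 2 in CTCF-AID, 2 and 8 in CTCF-YF-AA at 2 h and 4 h, and 3, 2 and 5 after AGB1, dTAG-13 and both, and DESeq2 called 1 in CTCF-AID and 0 in the others. Of all genes tested, edgeR called 1.45% in CTCF-AID, 0.814% and 1.03% in CTCF-YF-AA, and 0.404%, 0% and 0.807% in the dN-dC line.

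Around *Slco5a1*, the nearest genes are *Sulf1*, which encodes an extracellular enzyme that removes sulfate from heparan sulfate and ends 5356 bases from the end of *Slco5a1*, and the noncoding *Gm29283*, 76187 bases away on the other side. The 2 counted transcripts of *Sulf1* had log2 fold changes of −0.48 and −0.44 in CTCF-AID cells (adjusted p = 0.459 and 0.553), against 1.41 for *Slco5a1*. *Gm29283* gave 0.10 (adjusted p = 0.948). Neither neighbour was called in the comparison where *Slco5a1* was higher.

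*Prdm14*, which encodes a regulator of pluripotency and lies 120806 bases from *Slco5a1*, is named after its values were seen. The study itself reports *Slco5a1* as higher after CTCF-AID depletion. It explains this by enhancer activity passed from the *Prdm14* locus to *Slco5a1*, citing earlier work that altered a CTCF site there. That explanation was not tested here. The study also lists *Prdm14* among enhancer targets lower after RAD21 loss, CTCF loss or both. Here *Prdm14* had a mean of 79.6 CPM (SD 10.7, n = 4) in CTCF-AID controls and 71.0 CPM (SD 6.54, n = 4) after IAA. In the additional RAD21-AID libraries it fell from 71.1 CPM (SD 2.82, n = 12) to 37.8 CPM (SD 1.61, n = 12), a log2 fold change of −0.90 (adjusted p = 9.26e-34), and in the initial ones by 0.73 on the log2 scale (adjusted p = 8.89e-11). It was also lower after AGB1 and dTAG-13 together, with a log2 fold change of −0.51 (adjusted p = 2.44e-06), and at 2 h in CTCF-YF-AA, with −0.30 (adjusted p = 0.0487, or 0.518 by DESeq2). Its log2 fold change in CTCF-AID cells, where *Slco5a1* was higher, was −0.13 (adjusted p = 0.585), and the difference between the genes was not tested.

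Around *Gm37933*, the head-to-head partner *Rps3a1* had 149 CPM (SD 39.4, n = 4) in CTCF-AID controls and 135 CPM (SD 30.9, n = 4) after IAA. Its log2 fold changes were −0.11 in CTCF-AID, −0.03 and −0.14 in CTCF-YF-AA, and −0.05, 0.04 and 0.01 in the dN-dC line, with adjusted p of at least 0.25. *Lrba*, a gene of vesicle transport 79134 bases away, gave −0.14 in CTCF-AID (adjusted p = 0.615) and 0.20 after both drugs (adjusted p = 0.0211). Neither gene was called in the comparison where *Gm37933* was 19.5-fold higher.

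Around *Parp3*, the partner *Rrp9* gave log2 fold changes of −0.20 in CTCF-AID (adjusted p = 0.386), 0.07 and −0.16 in CTCF-YF-AA, and 0.05, 0.10 and 0.07 in the dN-dC line. Where *Parp3* rose in the additional RAD21-AID libraries, *Rrp9* gave −0.07 (adjusted p = 0.0171). *Gpr62*, an orphan receptor gene 4383 bases beyond the end of *Parp3*, was under the count minimum in mESCs. *Tex264*, which encodes a receptor for turnover of the endoplasmic reticulum and lies 181802 bases away, is named after its values were seen. It rose by 0.40 after AGB1 (adjusted p = 3.87e-05) and by 0.34 after both drugs (adjusted p = 0.000155) on the log2 scale, and was 0.28 and 0.25 higher in CTCF-YF-AA (adjusted p = 0.00904 and 0.0232, and 0.179 and 0.272 with DESeq2).

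*Abhd14b*, a hydrolase gene 17550 bases from *Parp3* and also named after its values were seen, had mean counts of 28.5 in CTCF-AID controls and 8.25 after IAA, a log2 fold change of −1.65 (adjusted p = 0.0778). With the replicate number as a block it was called, at −1.68 (adjusted p = 0.000861), as it was by DESeq2 (adjusted p = 0.0330), and with this block 511 genes were called over the whole table, against 1.45% of 15611 without it. *Abhd14b* overlaps *Abhd14a* on the other strand, so its counts are uncertain in libraries without strand information. Its direction was opposite to that of *Parp3*.

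Around *Gm33195*, both nearest genes, the noncoding *Gm33115* and *Gm2233* at 18511 and 80289 bases, were at or near 0 counts in mESCs and were not tested. *Rnf182*, a ubiquitin ligase gene 193723 bases away, gave 0.64 in CTCF-AID (adjusted p = 0.221) and rose by 0.73 in the additional RAD21-AID libraries (adjusted p = 1.01e-13). Little else was measured near *Gm33195*, with 3 of 7 neighbours tested in CTCF-AID and none in CTCF-YF-AA.

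After RAD21 loss, edgeR again called none of the neighbours tested, which were 18 in the initial and 20 in the additional mESC experiment and 19 at each NPC time, and DESeq2 called 0 in each. An unadjusted p under 0.05 was found for 8 and 18 in mESCs and for 8, 4 and 9 in NPCs at 1, 2 and 4 h. In the additional experiment 17 of 20 had an adjusted p under 0.05, beside 58.3% of all genes, with log2 fold changes from −0.90 to 0.73. *Grm2*, a glutamate receptor gene, was 0.71 higher (adjusted p = 1.68e-05) and *Gm29283* 0.60 higher (adjusted p = 1.1e-21), as *Rnf182* was, and the 2 *Sulf1* transcripts were 0.21 and 0.19 lower. In NPCs at 4 h the *Sulf1* transcripts fell by 0.72 and 0.64 on the log2 scale.

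A-485 called 8 of 19 tested neighbour transcripts, all lower, where 20.2% of all genes were called lower. They were the 2 transcripts of *Sulf1* (−3.12 and −4.38), *Cd83*, an immune surface receptor (−2.60), *Rnf182* (−1.93), the noncoding *Gm47728* (−1.62), *Pcbp4*, an RNA-binding protein (−1.45), *Ncoa2*, a nuclear receptor coactivator (−1.28), and *Gpr62* (−1.01). DESeq2 called 7. The tested neighbours of *Slco5a1*, which were *Sulf1* and *Ncoa2*, were all among them.

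Between lines, 6 of 18 neighbours were called in CTCF-YF-AA controls against initial RAD21-AID controls and 3 of 20 against CTCF-AID controls, beside 20.5% and 15.6% of all genes tested. *Rrp9* was the one called higher, by 1.08 against RAD21-AID (adjusted p = 3.65e-30). *Rnf182* was lower against both, with −3.30 and −2.30, as was *Gm47728* with −1.39 and −1.67, and the noncoding *Gm33489* was lower against CTCF-AID alone among those called, with −1.72. *Sulf1* (−1.18 and −1.12) and *Pcbp4* (−1.27) were called against RAD21-AID. Line, clone and experiment cannot be told apart in these values.

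No tested relative of the 2 protein-coding genes was called in a CTCF comparison, where edgeR called 0% to 1.45% of all genes, so a count of 0 says nothing particular about either family. Of 14 other organic anion transporter genes, 11 were in the table, 3 to 4 were tested in each CTCF comparison, and edgeR and DESeq2 called 0 in each, with 1 at an unadjusted p under 0.05 in CTCF-YF-AA at 2 h and 0 in the others. Their log2 fold changes ran from −0.74 to 0.62. Of 14 other ADP-ribosyltransferase genes all were in the table, 12 to 13 were tested, and both tools called 0, with 2 at an unadjusted p under 0.05 in CTCF-AID, 1 each in CTCF-YF-AA at 2 h, at 4 h and after AGB1, and 0 in the others. Their log2 fold changes ran from −0.43 to 0.83. The medians in CTCF-AID cells were −0.14 and 0.01, beside 0.02 over all genes tested. In the additional RAD21-AID libraries *Tiparp*, an ADP-ribosyltransferase gene named after its values were seen, fell by 1.29 on the log2 scale (adjusted p = 5.58e-44) while *Parp3* rose.

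The study names *Lsm11*, *Ocel1*, *Mrps16*, *Kctd6* and *Mlst8* as genes higher after CTCF loss with CTCF bound at or near the start. It places *Rps3a1*, the partner of *Gm37933*, in another class, where antisense transcription upstream of the start rose after CTCF loss. For *Rps3a1* it reports CTCF just upstream of the start and RNA polymerase II shifted upstream after CTCF loss. *Gm37933* runs on the opposite strand there, and whether its counts are such antisense RNA was not tested. The values of *Rps3a1* are given above, and it is not among the 5. The 5 were chosen on these samples, so their direction is not independent evidence. In CTCF-AID cells *Ocel1* (1.43, adjusted p = 0.0481) and *Lsm11*, which encodes a protein of histone RNA processing (1.19, adjusted p = 0.000203), were called, and after AGB1 with dTAG-13 *Ocel1* was called again (1.29, adjusted p = 0.000123). The median of the 5 genes was 0.96 in CTCF-AID, 0.48 and 0.53 in CTCF-YF-AA, and 0.56, 0.01 and 0.71 after AGB1, dTAG-13 and both. In the additional RAD21-AID libraries it was 0.02.

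Among 16783 genes with enough counts, those whose mean log2 levels over the 15 mESC groups were most like each gene are given with Pearson's r as a description. The groups share lines and controls, so these values carry no p. They also include the CTCF depletion groups, whose high values chose the genes. Likeness among the chosen genes, or to other genes higher after CTCF loss, is therefore partly built in by that choice. *Slco5a1* was most like *Sec22c*, a gene of vesicle transport (0.915), *Nr2f2*, a nuclear receptor gene (0.914), and *Prdm6* (0.891). *Parp3* was most like *Entpd1*, which encodes an enzyme that breaks down extracellular nucleotides (0.912), *Gm9889* (0.834) and *Loxl1*, a gene of elastic fibre assembly (0.827).

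*Gm37933* was most like *Zcwpw2* (0.929), *Slx1b*, which encodes a nuclease subunit (0.923), and *Mrps16*, a gene of the mitochondrial ribosome (0.923). *Gm33195* was most like *Slx1b* (0.925), *Kctd6*, a ubiquitin ligase adaptor gene (0.923), and *Etv3*, a transcriptional repressor gene (0.912). Among themselves the closest were *Gm37933* and *Gm33195*, with r of 0.890, and the least alike *Slco5a1* and *Parp3*, with 0.214. The other pairs ranged from 0.396 to 0.664. Since the genes were chosen by high values in some of these groups, nothing about a link between them can be read from r. Whether they are alike apart from CTCF loss was not tested.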

How the data were processed

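The authors labelled cells with 5-ethynyl uridine for 20 min, sequenced the captured RNA, aligned reads to mm10 with BWA, filtered them with SAMtools (1.4 in the submitters' processing notes), removed rRNA and tRNA reads with bedtools and deposited HTSeq counts over the gene bodies of representative transcripts, 1 for most genes. The deposited counts are raw, and the 1 h NPC and A-485 columns and their controls were limited to the first 90 kb. Whether gene counting used strand is not given in the sources used here. All 62 columns of the 60 libraries were used, and totals, which limit the precision, were 4027449 to 21898781 over whole bodies and 13863983 to 17730066 over 90 kb.

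Of 27665 transcripts, 27296 matched GENCODE M21 exactly, 159 in another version and 210 not at all. Counts were fitted with edgeR 4.0.16 (limma 3.58.1, R 4.3.3) by the quasi-likelihood test, two-sided, with TMM scaling, for genes with a mean count above 20 in a group. Library type was a covariate in CTCF-AID. Log2 fold changes were centred on the median of genes above 15 TPM, and P values were adjusted by Benjamini-Hochberg over all genes tested. On simulated counts the fit was checked for recovery of known changes. DESeq2 1.42.0 and other settings served as alternatives. Tables and plots used Python 3.11.15, pandas 2.3.3 and matplotlib 3.10.9.

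Replicate numbers paired the CTCF-AID libraries: deviations from the group means correlated with r of 0.449 without and 0.794 with strand information, each a single independent value since the 2 pairs of a type mirror each other. Separate libraries of 1 group are not stated to be separate cultures, so p-values may measure technical spread. Replicates differed by more than sampling noise, with chi-square over degrees of freedom of 1.44 to 38.3 in 150 pairs. For 18 of 60 libraries the treatment text names triptolide while the titles name IAA or dTAG-13. Groups follow the titles. The column names give another dTAG-13 dose for dN-dC than the labels do.

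The 4 genes, the lists and the tests were chosen with earlier results of these data known. Genes named are the 4, their nearest neighbours on each side, neighbours and family genes that were called, the 3 most alike in level, and others said to be named after their values were seen.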

Additional observations from a re-analysis of the deposited data

Results flagged for a closer look

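*Slco5a1* in the CTCF-AID controls had 1 library, stranded replicate 2 at 45.9 CPM, far from the other 3 (18.5 to 21.4 CPM). Its gap to the nearest library was 0.893836 of the range of the 4 controls, above Dixon's 95% critical value. Of 8 such groups of 4 examined, 1 passed this limit, and chance gives about 1 in 20. Without this control the log2 fold change of *Slco5a1* was 1.70 in place of 1.41.

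The response to 4 h of RAD21 loss differed between NPCs and the additional mESC experiment for 6 neighbour transcripts. The edgeR interaction test behind this was added after the data were seen. In it 5853 of 17538 genes (33.4%) had an adjusted p under 0.05, so such differences were common and not particular to the neighbours. The log2 difference, NPC minus mESC, was 0.456297 for *Pcbp4* (adjusted p = 0.000122) and 0.210428 for *Tex264* (adjusted p = 0.0114), higher in NPCs. It was −1.12976 for *Rnf182* (adjusted p = 1.23e-07), −0.392247 and −0.495155 for the *Sulf1* transcripts (adjusted p = 6.74e-06 and 3.10e-09) and −0.175915 for *Lrba* (adjusted p = 0.0416), lower in NPCs. Cell type and experiment cannot be told apart here. No such difference was detected for *Slco5a1* (0.02, adjusted p = 0.905) or *Gm37933* (−0.11, adjusted p = 0.864).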

How the results depend on the processing

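Depth limited *Gm33195* and *Parp3* most, which held under 10 counts in several control libraries. Of the single values of the 4 genes under the alternatives, 413 moved little or kept their side of the threshold, 24 moved, and 4 became and 7 were no longer significant. No called value and none of 2-fold or more changed sign, while smaller ones did, such as *Gm37933* in CTCF-YF-AA against CTCF-AID controls (0.52, and −0.45 without CTCF-YF-AA control 2). For neighbours 681 kept their side of the threshold and 71 lost significance. With mean counts above 100 the number at least 2-fold higher was 1 in CTCF-YF-AA at 2 h, 1 at 4 h, 1 after AGB1 and 1 after both drugs, since fewer genes were tested, and with any count it was 1 after dTAG-13. The same filters gave 0 called at 4 h in NPCs and 1 after A-485 above 100. With any count, 2 were at least 2-fold higher in CTCF-YF-AA against CTCF-AID controls. Without centring 1 was called at 2 h in NPCs.

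Neighbours called in CTCF-AID went from 0 to 1 with DESeq2 and to 1 with the replicate block, both *Abhd14b*, in the additional RAD21-AID experiment to 1 with any count (*Iqcf4*, 1.94), and in CTCF-YF-AA against CTCF-AID controls from 3 to 1 with DESeq2, 5 with any count and 1 above 100. Leaving out 1 library gave 0 to 1 neighbours in CTCF-YF-AA at 4 h (*Dusp7*, 1.00, without control replicate 1) and in the initial RAD21-AID experiment (*Gm47728*, 1.31, without control replicate 1). It gave 1 to 2 of the 4 genes at least 2-fold higher after AGB1 (1 without AGB1 replicate 2). Without TMM the unstranded CTCF-AID controls averaged 19.6167 CPM for *Slco5a1* and 2.07634 CPM for *Parp3*, in place of 18.8573 and 1.99601. Beyond what each setting leaves out, the cause was not tested.

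With the replicate number as a block, the log2 fold changes in CTCF-AID were 1.42, 4.29, 0.82 and 2.28 for *Slco5a1*, *Gm37933*, *Parp3* and *Gm33195*. Elsewhere the numbers did not pair the libraries (r of −0.003 to 0.280 in the additional experiment and −0.0749 to 0.125 with 2 a group). There the block moved the genes called at 2 h in NPCs from 240 to 286 and gave adjusted p of 0.0177 for *Parp3* at 2 h in NPCs and 0.0929 for *Prdm14* at 2 h in CTCF-YF-AA, in place of 0.0487.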
